A study of Mus musculus with 25 samples.

Results

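Genes of endoplasmic reticulum stress and protein folding were followed across 5 mouse genotypes: 38 genes of the 49452 gene identifiers in the deposited expression table. They were chosen by symbol, from what their products are known to do and with earlier results of these data known. Each symbol matched 1 identifier. By role they are 11 chaperones and cochaperones, 4 protein disulfide isomerases, 8 genes of ER-associated degradation, 4 of translocation into the ER, 5 sensors with the transcription factors XBP1 and ATF6, and 6 genes of the ATF4 branch and of stress-induced factors. All 38 were expressed at 0.2 FPKM or more in at least 5 libraries, the filter used here, and so were among the 19266 genes tested. FPKM is the number of sequenced fragments per kilobase of transcript, scaled to the size of the library.

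Secreted and membrane proteins fold in the ER, with help from chaperones such as BiP (Hspa5) and from enzymes that form disulfide bonds. Proteins that fail to fold are pulled back to the cytosol and degraded. When folding cannot keep up, the sensors IRE1 (Ern1, and in gut epithelium also Ern2), PERK (Eif2ak3) and ATF6 start the unfolded protein response. IRE1 splices the messenger of Xbp1, and XBP1 and ATF6 switch on chaperone and degradation genes. PERK slows translation and raises ATF4, which drives genes of amino acid supply and stress such as Asns, Trib3, Ddit3 and Chac1. In the gut, goblet cells, Paneth cells and plasma cells secrete large amounts of protein, hold a large ER and depend on XBP1.

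The study asked how loss of the p40, p35 or p19 cytokine subunits alters the colon of mice whose intestinal epithelial cells lack NEMO (gene Ikbkg), which holds the IκB kinases together and lets them activate NF-κB. RNA from distal colon of 25 mice aged 6 weeks, of C57BL/6 background, was sequenced as poly(A)-selected libraries, with 5 mice per genotype and each mouse 1 replicate. Nemofl/fl mice carry the floxed gene, NEMOIEC-KO mice have lost it in intestinal epithelial cells, and 3 further genotypes are NEMOIEC-KO mice that are also Il12b-/-, without the p40 chain common to IL-12 and IL-23, Il12a-/-, without the p35 chain of IL-12, or Il23a-/-, without the p19 chain of IL-23. The labels do not name the Cre driver or describe the mutant alleles, and whole colon holds epithelium, muscle and immune cells. In such bulk RNA, fewer cells of a type and less RNA per cell cannot be told apart.

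Ikbkg followed its label: it was 9.08 ± 1.14 FPKM (SD, n = 5) in Nemofl/fl, 4.08 ± 1.104 in NEMOIEC-KO and between 2.93 and 4.37 in every double mutant mouse. Il12b RNA ran against its label, at 0.994 ± 0.223 FPKM in the libraries labelled NEMOIEC-KO Il12b-/- and 0.171 ± 0.0799 in NEMOIEC-KO. Il12a was likewise 1.20 ± 0.586 FPKM in libraries labelled NEMOIEC-KO Il12a-/- and 0.421 ± 0.313 in NEMOIEC-KO, and Il23a was 0.214 ± 0.0427 against 0.311 ± 0.308. FPKM over a whole gene does not show whether a part of it is deleted. The double mutants are therefore named by their labels (Il12b-labelled and so on), and every direction drawn from them rests on the labels. The epithelial markers Epcam and Cdh1 were at 756.3 FPKM or more and 189.6 FPKM or more in every library.

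The sum of all FPKM lay between 653776 and 744280 per library, and 13529 to 14374 genes reached 1 FPKM. Read depth is unknown, so no counting interval is given. The submitters' descriptions give each library a code. The 5 Nemofl/fl mice have the same code as NEMOIEC-KO replicates 3, 4 and 5, and NEMOIEC-KO replicates 1 and 2 that of 14 double mutants, while Il23a-labelled replicate 5 has one of its own. Xist exceeded 1 FPKM in 0 Nemofl/fl, 1 NEMOIEC-KO, 2 Il12b-labelled, 2 Il12a-labelled and 4 Il23a-labelled mice. High Xist was thus uneven across the genotypes, and a fit that includes Xist cannot fully separate it from genotype. For the 38 genes, 2 libraries stood apart: Il12b-labelled replicate 2 and Il12a-labelled replicate 1 were higher than the others of their genotype, and results that rest on them are given with and without them.

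The promoters of these genes are where the response is read, and 32 of the 38 matched a RefSeq window of 300 bases, from 250 before to 50 after the transcription start (assembly GRCm38.p6). The ER stress response element, ERSE, was searched on both strands as CCAAT and CCACG with any 9 bases between them. It lay in the windows of 9 of the 32 genes (28.1%), against 0.119% of all 32817 windows. These 9 are Hspa5, Hsp90b1, Calr, Canx, Dnajc3, Creld2, Pdia6, Syvn1 and Derl3. The related ERSE-II, ATTGG and CCACG with any 1 base between them, was in 2 of the 32 (Dnajb11 and Herpud1; 6.25%, against 0.0366% of all windows). The XBP1 element TGACGTGG was in 0 of the 32, against 0.676%. The C/EBP-ATF element through which ATF4 acts, TGATGNAA, was in Herpud1, Trib3, Asns and Chac1 (12.5%, against 3.97%). No motif overlapped another in these windows. A match is a stretch of letters, not a measured binding site. The genes were chosen for what their products do in this response, so these shares describe the list and are not a test.

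Below are the 250 bases before the start for 8 genes, 5′ to 3′ on the gene's own strand, with the fixed letters of each match in capitals. The first 4 carry an ERSE and were higher in NEMOIEC-KO. Canx and Herpud1 carry an ERSE or ERSE-II and did not pass the test there. Asns and Chac1 carry the ATF4 element and were higher.
Hspa5 (chr2:34771840-34772089, plus strand): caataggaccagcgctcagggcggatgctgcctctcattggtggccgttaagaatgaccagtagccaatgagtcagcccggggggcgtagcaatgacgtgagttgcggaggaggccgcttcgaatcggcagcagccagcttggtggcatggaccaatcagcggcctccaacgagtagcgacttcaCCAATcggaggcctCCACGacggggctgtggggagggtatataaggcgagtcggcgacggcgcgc
Hsp90b1 (chr10:86705445-86705694, minus strand): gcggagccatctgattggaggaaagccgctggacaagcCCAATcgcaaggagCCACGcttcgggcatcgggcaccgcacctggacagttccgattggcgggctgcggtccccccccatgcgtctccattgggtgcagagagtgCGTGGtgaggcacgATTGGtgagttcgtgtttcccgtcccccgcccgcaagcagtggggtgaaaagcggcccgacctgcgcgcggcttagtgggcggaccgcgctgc
Creld2 (chr15:88819396-88819645, plus strand): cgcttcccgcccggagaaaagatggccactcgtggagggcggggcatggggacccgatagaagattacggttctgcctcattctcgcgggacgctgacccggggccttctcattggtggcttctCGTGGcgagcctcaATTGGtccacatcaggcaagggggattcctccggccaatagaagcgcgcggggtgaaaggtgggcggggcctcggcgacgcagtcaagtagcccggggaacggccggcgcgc
Derl3 (chr10:75893148-75893397, plus strand): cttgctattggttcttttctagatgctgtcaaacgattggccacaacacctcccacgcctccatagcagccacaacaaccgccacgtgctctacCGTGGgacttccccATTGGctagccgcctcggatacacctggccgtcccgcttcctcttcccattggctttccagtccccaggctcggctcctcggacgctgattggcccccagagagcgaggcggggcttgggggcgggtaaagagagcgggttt
Canx (chr11:50325674-50325923, minus strand): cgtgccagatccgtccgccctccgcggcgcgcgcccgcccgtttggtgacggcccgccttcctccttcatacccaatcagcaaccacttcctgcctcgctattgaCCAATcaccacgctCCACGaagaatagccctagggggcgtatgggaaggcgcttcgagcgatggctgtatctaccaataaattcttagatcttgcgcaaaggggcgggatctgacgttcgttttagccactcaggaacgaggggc
Herpud1 (chr8:94386179-94386428, plus strand): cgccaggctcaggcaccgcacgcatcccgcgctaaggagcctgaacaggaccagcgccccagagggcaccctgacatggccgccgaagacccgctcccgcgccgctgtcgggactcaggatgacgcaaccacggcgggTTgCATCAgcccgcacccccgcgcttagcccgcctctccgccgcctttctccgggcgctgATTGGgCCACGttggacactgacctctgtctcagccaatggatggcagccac
Asns (chr6:7693210-7693459, minus strand): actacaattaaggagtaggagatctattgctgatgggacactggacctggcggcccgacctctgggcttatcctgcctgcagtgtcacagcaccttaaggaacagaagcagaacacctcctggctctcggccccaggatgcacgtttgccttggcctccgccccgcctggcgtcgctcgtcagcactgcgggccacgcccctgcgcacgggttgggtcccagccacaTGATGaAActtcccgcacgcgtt
Chac1 (chr2:119350992-119351241, plus strand): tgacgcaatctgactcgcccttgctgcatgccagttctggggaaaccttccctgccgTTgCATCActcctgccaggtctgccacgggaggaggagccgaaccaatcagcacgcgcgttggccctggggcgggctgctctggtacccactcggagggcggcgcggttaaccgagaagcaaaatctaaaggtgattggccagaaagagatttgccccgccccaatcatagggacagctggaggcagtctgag
Hsp90b1 holds 2 ERSE matches, from -212 to -194 and from -107 to -89 counted from the start. In Hspa5 the match runs from -65 to -47, in Creld2 from -126 to -108, in Derl3 from -156 to -138 and in Canx from -145 to -127. Herpud1 holds the ERSE-II from -52 to -42 and the ATF4 element from -112 to -105. The ATF4 element lies from -23 to -16 in Asns and from -193 to -186 in Chac1.

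The first comparison, NEMOIEC-KO against Nemofl/fl, shows how these genes stand when the epithelium lacks NEMO. In limma, 24 of the 38 were higher in NEMOIEC-KO and 0 lower at an adjusted p below 0.05. Of all 19266 genes, 32.2% passed, 11.9% as higher and 20.3% as lower. At an unadjusted p under 0.05, 26 of the 38 were higher and 1, Dnajb9, lower, beside 43.4% of all genes in either direction. The median log2 fold change of the 38 was 0.43, beside -0.08 for all genes tested. In 19 of the 38, every NEMOIEC-KO mouse lay above every Nemofl/fl mouse, a separation seen in 8.73% of all genes. Together the 38 genes made up 0.351% ± 0.0207 (SD, n = 5) of all FPKM in controls and 0.507% ± 0.0779 in NEMOIEC-KO. Fold changes here and below are on the scale log2(FPKM + 0.5), which understates the change of low genes such as Derl3, Trib3 and Chac1.

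**Figure D1:**
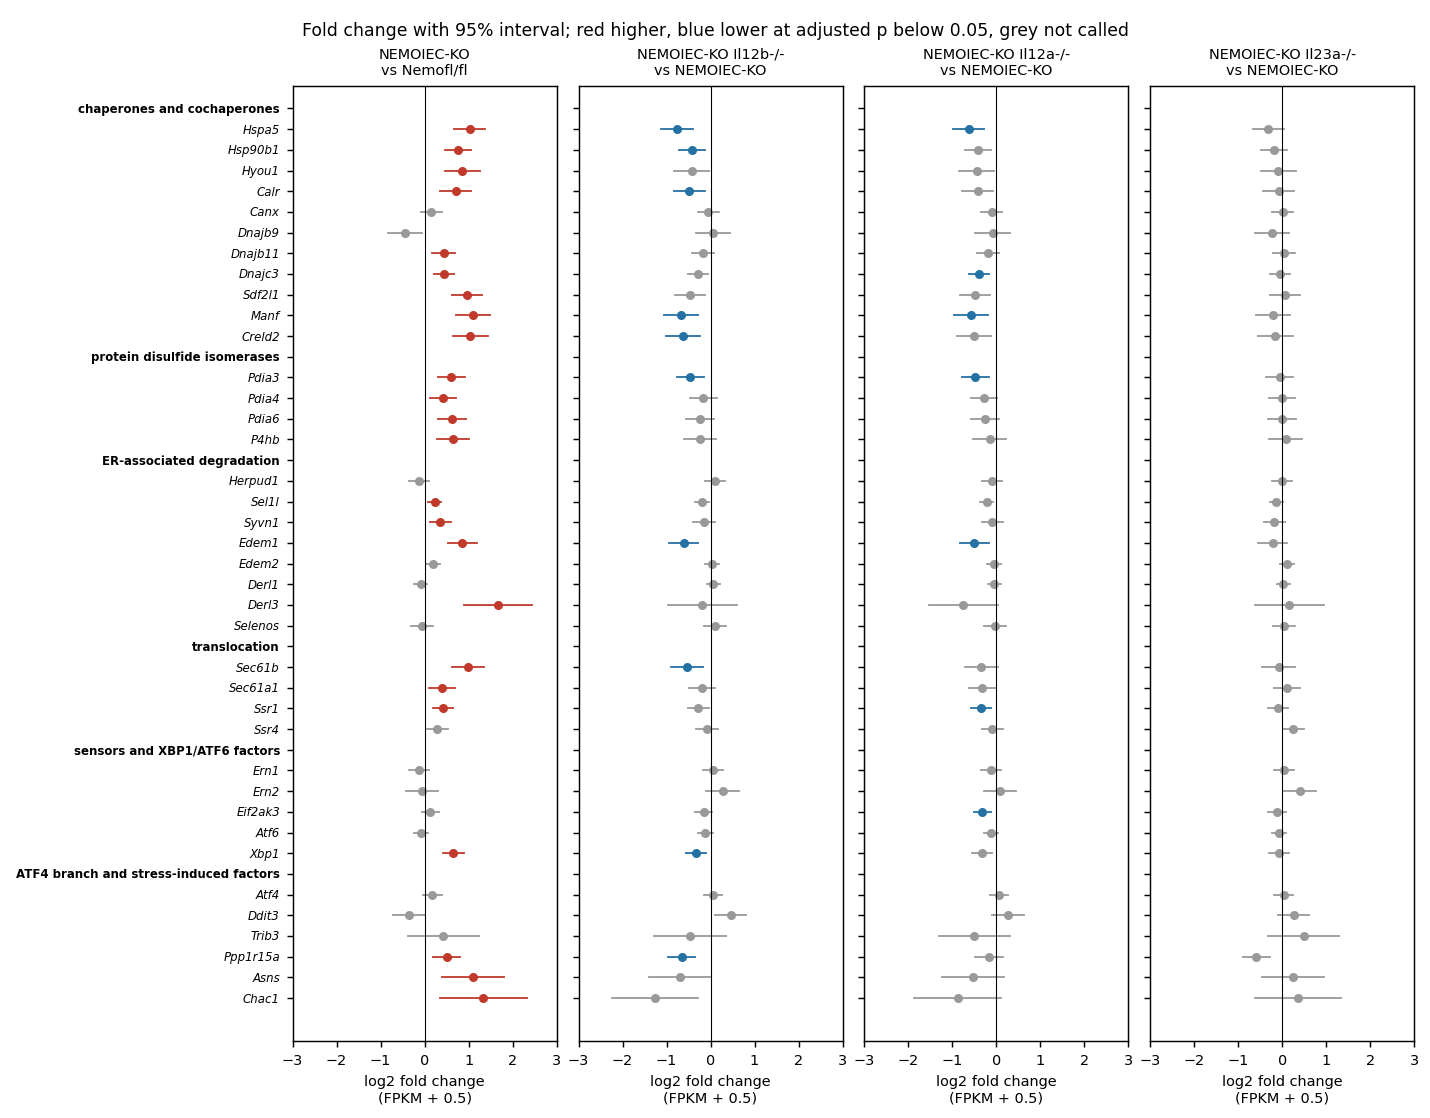
Log2 fold change (x axis, on log2(FPKM + 0.5)) of the 38 genes, ordered by role (y axis), in 4 comparisons, with bars for the 95% interval from limma; red marks genes higher and blue genes lower at an adjusted p below 0.05. The first panel holds 24 red genes and no blue one, the second 10 blue, the third 7 blue and the fourth none of either colour.

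Of the chaperones and cochaperones 9 of 11 rose, and the median change over the 11 was 0.76 on the log2 scale. Manf, a secreted ER stress factor and BiP cofactor, stood at 89.5, 71.2, 92.2, 74.9 and 78.2 FPKM in the 5 Nemofl/fl mice and at 135, 175, 245, 153 and 180 in the NEMOIEC-KO mice. The lowest NEMOIEC-KO mouse was well above the highest control. Its mean was 2.19 times as high and its log2 fold change 1.101 ± 0.18 (SE; limma adjusted p = 0.00021). Creld2, an ER protein that binds misfolded cargo, was 28.7, 23.3, 26.4, 24.4 and 25.1 FPKM in controls and 40.8, 61.7, 76.7, 41.0 and 52.3 in NEMOIEC-KO, again without overlap and with replicate 3 highest. Its log2 fold change was 1.04 ± 0.19 (SE; limma adjusted p = 0.00047).

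Hspa5, which encodes BiP, the main ER chaperone and the brake on all 3 sensors, was 160, 104, 121, 112 and 109 FPKM in controls and 208, 248, 328, 219 and 238 in NEMOIEC-KO. The groups did not overlap, although Nemofl/fl replicate 1 stood above the other controls. Its log2 fold change was 1.03 ± 0.17 (SE; limma adjusted p = 0.00019). Also higher were Sdf2l1 (0.96), a partner of the ER DnaJ proteins, the BiP-related exchange factor Hyou1 (0.85), Hsp90b1 (0.76), the ER paralogue of HSP90, and the lectin chaperone Calr (0.71). The BiP cochaperones Dnajc3 (0.45) and Dnajb11 (0.43) rose less. Canx, the membrane-bound lectin chaperone, had 75.8 ± 11.7 FPKM in controls and 84.2 ± 9.19 in NEMOIEC-KO (log2 fold change 0.16, 95% interval -0.08 to 0.39). Dnajb9, a BiP cochaperone that restrains IRE1, had 17.1 ± 4.67 and 12.2 ± 1.81 FPKM (-0.44, 95% interval -0.83 to -0.05; adjusted p = 0.075).

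The 4 protein disulfide isomerases all rose, with log2 fold changes between 0.42 and 0.64. P4hb, the founding member of the family, was 229, 236, 229, 226 and 251 FPKM in controls and 283, 389, 463, 352 and 360 in NEMOIEC-KO. Pdia6, which also binds the sensors IRE1 and PERK, was 61.6, 57.4, 64.2, 59.2 and 65.5 against 70.7, 105, 122, 92.3 and 94.3 FPKM. For both genes the controls lay close together and all NEMOIEC-KO mice lay above them, replicate 1 least and replicate 3 most. The log2 fold changes were 0.64 ± 0.18 (SE; limma adjusted p = 0.0097) for P4hb and 0.63 ± 0.15 (adjusted p = 0.004) for Pdia6. Pdia3, the partner of calnexin and calreticulin, was higher by 0.60 and Pdia4 by 0.42. Pdia4 kept its call in 5 of the 10 fits that each left out 1 mouse.

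ER-associated degradation was divided: 4 of 8 genes rose and the other 4 lay between -0.12 and 0.19. Derl3, a derlin of secretory cells that helps move misfolded proteins out of the ER, was 1.48, 0.703, 0.834, 0.834 and 0.940 FPKM in controls and 1.50, 8.63, 8.54, 3.71 and 2.32 in NEMOIEC-KO. NEMOIEC-KO replicate 1 barely exceeded the highest control, while replicates 2 and 3 were far above it. The log2 fold change was 1.67 ± 0.38 (SE; limma adjusted p = 0.0024). Edem1, a lectin that extracts misfolded glycoproteins from the folding cycle, was 23.1, 22.2, 21.6, 22.9 and 30.6 against 38.1, 45.8, 49.1, 48.8 and 38.2 FPKM (0.86 ± 0.16; adjusted p = 0.00048). All 5 NEMOIEC-KO mice lay above all controls for Edem1.

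Syvn1, the ubiquitin ligase of the pathway, rose by 0.35 and Sel1l, its scaffold, by 0.23. Their groups overlapped, and neither passed in the 3 NEMOIEC-KO and 5 Nemofl/fl libraries of the code these genotypes share. Herpud1, which organises the ligase complex and whose promoter is printed above, had 118 ± 6.42 FPKM in controls and 108 ± 10.2 in NEMOIEC-KO (-0.12, 95% interval -0.35 to 0.10). Derl1 lay at 40.8 ± 1.62 against 38.4 ± 2.12 FPKM, Selenos at 102 ± 12.4 against 97.0 ± 12.6 and Edem2 at 28.9 ± 2.35 against 33.0 ± 2.75. None of these 4 passed the test.

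Of the 4 translocation genes 3 rose. Sec61b, a subunit of the channel through which new proteins enter the ER, was 143, 161, 173, 171 and 202 FPKM in controls and 257, 333, 435, 349 and 321 in NEMOIEC-KO. Ssr1, a subunit of the translocon-associated complex, was 12.9, 12.6, 12.7, 12.3 and 11.9 against 15.0, 15.3, 18.9, 17.9 and 17.5 FPKM. Neither gene overlapped between the groups, and the controls of Ssr1 were nearly equal. The log2 fold changes were 0.98 ± 0.18 (SE; limma adjusted p = 0.00043) for Sec61b and 0.42 ± 0.11 (adjusted p = 0.0075) for Ssr1. Sec61a1, the pore itself, rose by 0.40 and kept its call in 4 of the 10 fits that each left out 1 mouse. Ssr4, another subunit of the translocon-associated complex, was at 161 ± 13.6 against 198 ± 21.6 FPKM without passing (0.29; adjusted p = 0.062).

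Of the sensors and factors, 1 of 5 rose. Xbp1 was 110, 85.4, 88.5, 91.5 and 95.5 FPKM in controls and 127, 162, 181, 133 and 143 in NEMOIEC-KO, without overlap. Its log2 fold change was 0.65 ± 0.11 (SE; limma adjusted p = 0.00027). Gene-level FPKM does not separate spliced from unspliced Xbp1. The PERK gene Eif2ak3 was 8.54, 7.99, 8.26, 6.93 and 8.86 against 10.2, 8.77, 9.14, 8.76 and 7.67 FPKM, and the ranges overlapped (0.13, 95% interval -0.07 to 0.32). Ern1 (4.82 ± 0.960 against 4.31 ± 0.593 FPKM), Ern2 (11.5 ± 3.12 against 10.8 ± 2.04) and Atf6 (7.57 ± 0.729 against 7.10 ± 0.592) did not pass, with log2 fold changes of -0.14, -0.07 and -0.09.

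In the ATF4 branch 3 of 6 rose. Chac1, an enzyme that degrades glutathione, was 0.386, 0.660, 0.582, 0.746 and 0.790 FPKM in controls and 0.887, 3.80, 6.34, 1.62 and 1.61 in NEMOIEC-KO. Asns, asparagine synthetase, was 7.83, 8.68, 9.09, 9.04 and 9.47 against 10.4, 19.3, 37.4, 17.3 and 21.9 FPKM. For both the controls were tight and the NEMOIEC-KO mice spread widely, replicate 1 lying just above the controls and replicate 3 highest. The log2 fold changes were 1.33 ± 0.47 (SE; limma adjusted p = 0.036) for Chac1 and 1.11 ± 0.34 (adjusted p = 0.017) for Asns. The call for Asns was lost without NEMOIEC-KO replicate 3, and that for Chac1 in 6 of the 10 fits that each left out 1 mouse.

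Ppp1r15a, the phosphatase subunit that reverses PERK's block of translation, was 12.1, 16.7, 18.0, 14.7 and 17.6 FPKM in controls and 26.5, 18.2, 19.6, 20.9 and 28.1 in NEMOIEC-KO. Its highest NEMOIEC-KO values were in replicates 5 and 1, not in replicate 3, and its lowest NEMOIEC-KO mouse just exceeded the highest control. The log2 fold change was 0.50 ± 0.15 (SE; limma adjusted p = 0.015). Atf4 itself (121 ± 10.2 against 137 ± 18.5 FPKM; 0.18), Ddit3, which encodes the death-associated factor CHOP (28.2 ± 6.84 against 21.5 ± 0.900; -0.35), and Trib3, an inhibitor of ATF4 and AKT (0.747 ± 0.233 against 1.40 ± 1.19; 0.43), did not pass. Trib3 reached 3.40 FPKM in NEMOIEC-KO replicate 3 and 0.318 in replicate 1.

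**Figure D2:**
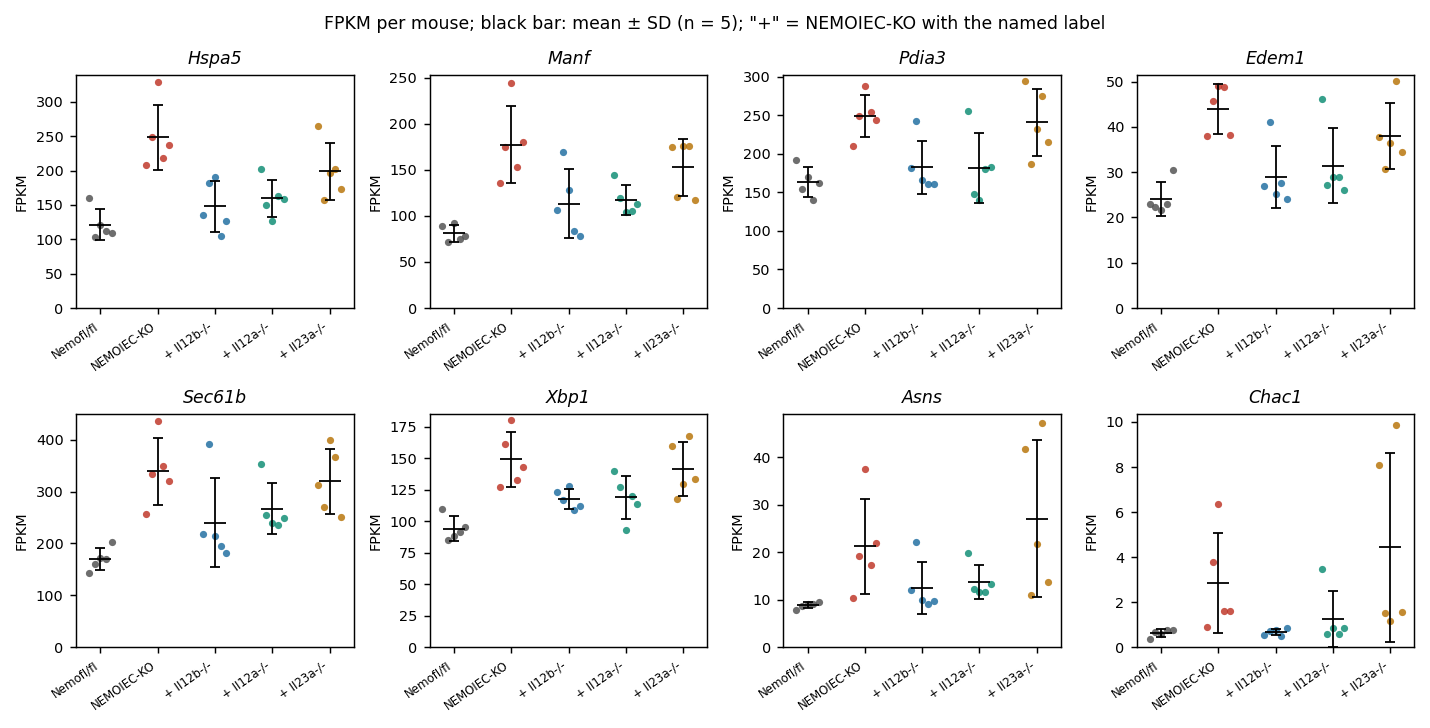
FPKM (y axis, from 0) of 8 genes in each of 5 mice per genotype (x axis), with black bars for the mean and SD; a plus sign stands for NEMOIEC-KO with the named label. For all 8 genes the NEMOIEC-KO mice lie above the Nemofl/fl mice, and in the Il12b-labelled and Il12a-labelled groups 1 mouse sits above the others for Pdia3, Edem1, Sec61b and Asns.

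Promoter motif and response can be set side by side without a test. Of the 21 genes that rose and had a window, 8 held an ERSE, and of the 11 that had a window and did not pass, 1 did, Canx. ERSE-II was in 1 gene that rose and in 1 that did not. The ATF4 element was in 2 genes that rose, Asns and Chac1, and in 2 that did not, Herpud1 and Trib3.

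Markers of other cell types moved in the same comparison. Of 16 plasma cell markers 14 were higher in NEMOIEC-KO and 0 lower (median 2.03), and none was at 0 in any library. Their summed level ranged from 1037 to 3665 FPKM in controls and from 4009 to 17780 in NEMOIEC-KO, where replicate 2 was highest and replicate 1 lowest. The joining chain Jchain rose from 62.53 ± 50.83 to 282.8 ± 154.2 FPKM and the ER protein Mzb1 from 3.56 ± 1.34 to 15.95 ± 8.47. Smooth muscle markers fell in 9 of 12 (sums 3347 to 11960 FPKM in controls, 1863 to 5556 in NEMOIEC-KO). Epithelial markers rose in 6 of 12 (12370 to 13450 against 14930 to 16850 FPKM). Of 15 goblet cell markers 3 were higher and 3 lower, with sums of 10040 to 17030 and 10980 to 21250 FPKM. T cell markers rose in 13 of 13, neutrophil markers in 10 of 12 and macrophage markers in 8 of 12, with 1 lower.

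With the mean log2 level of the plasma cell markers as a covariate, 1 of the 38 genes, Ppp1r15a, was called higher (log2 fold change 0.98, limma adjusted p = 0.0033), and the share of all genes called was 1.13%. In that fit the log2 fold change of Derl3 was -0.02 and that of Chac1 -0.20, while Hspa5 kept 0.65 (adjusted p = 0.17) and Manf 0.75 (0.15). With smooth muscle markers as a covariate 9 of the 38 were higher, among 10.4% of all genes called. With epithelial markers, a setting added after the data were seen, 13 were higher, among 14.1%. Every NEMOIEC-KO mouse lay above every control in the plasma cell and the epithelial sums. The covariate was the mean log2 level of the same markers, whose values per mouse are not given here. Many of these markers differed with genotype, so the fits cannot fully separate marker level from genotype. The part these cells play in the 24 calls was not tested. With only the 3 NEMOIEC-KO and 5 Nemofl/fl libraries of the shared code, 23 of the 38 were called higher, and with Xist as a covariate 23. The share of all genes called is not given here for the shared-code and Xist fits. Whether the 38 stood out in them is therefore not shown.

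Further genes of the same pathways were counted over lists that were also made with earlier results of these data known. They held 83 genes, of which 31 were higher and 7 lower, with a median of 0.26. That is 37.3% higher and 8.43% lower, beside 11.9% and 20.3% of all genes. Of 17 further folding enzymes and chaperones 10 were higher and 1 lower. Fkbp11, a prolyl isomerase of secretory cells, rose by 1.13 and Ero1l, the oxidase that recharges the disulfide isomerases, by 0.68, while Fkbp14 fell by 0.43. Of 20 translocation, signal peptidase and glycosylation genes 7 were higher and 1 lower, led by Sec61g (0.85) and Ssr2 (0.65), with Sec62 at -0.31. Of 13 further ER-associated degradation genes 3 were higher, led by Derl2 (0.58) and Vcp (0.30), and Herpud2 was lower (-0.34).

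The further sensors and factors split evenly, 4 higher and 4 lower of 14, or 28.6% each way beside 11.9% and 20.3% of all genes. Creb3l3, a membrane-bound factor cleaved like ATF6, rose from 2.17 ± 0.206 to 11.59 ± 2.29 FPKM (log2 fold change 2.16), and Eif2ak2, the kinase PKR that senses double-stranded RNA, rose by 0.86. Mbtps1, the protease that cleaves ATF6, fell by 0.51 and Creb3l1 by 0.37. Of 19 further ATF4 targets 7 were higher and 0 lower, led by the tryptophanyl-tRNA synthetase Wars (1.94), which interferon also induces, and by Psat1 of serine synthesis (1.32). The cytosolic heat shock genes served as a contrast list: 2 of 14 were higher (Dnaja1 and Dnajb1, both 0.50) and 1 lower, with a median of 0.08. Their 14.3% higher stood near the 11.9% of all genes, and 7.14% were lower beside 20.3%. The lower gene, Hspa1a (-0.73), shares most of its sequence with Hspa1b, so its value is uncertain.

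The second comparison sets the Il12b-labelled double mutants against NEMOIEC-KO. Of the 38 genes 10 were lower and 0 higher: Hspa5, Hsp90b1, Calr, Manf, Creld2, Pdia3, Edem1, Sec61b, Xbp1 and Ppp1r15a. Of all genes 19.9% passed, 14% as higher and 5.94% as lower. In Hspa5, Ppp1r15a and Chac1 every Il12b-labelled mouse lay below every NEMOIEC-KO mouse (4.1% of all genes), and in Ddit3 every mouse lay above (11.7%). At an unadjusted p under 0.05 the count was 16 lower and 1 higher, Ddit3, beside 34.5% of all genes in either direction. The median log2 difference of the 38 was -0.22, beside 0.11 for all genes. All 10 were among the 24 that rose in NEMOIEC-KO, but both comparisons use the same NEMOIEC-KO mice, so a high value there raises one and lowers the other.

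Hspa5 was 135, 182, 192, 105 and 127 FPKM in the Il12b-labelled mice, all below the lowest NEMOIEC-KO mouse. Its log2 fold change was -0.76 ± 0.17 (SE; limma adjusted p = 0.0036). Ppp1r15a was 12.1, 12.9, 17.2, 12.8 and 15.7 FPKM, also entirely below NEMOIEC-KO (-0.66 ± 0.15; adjusted p = 0.0041). Edem1 was 26.9, 41.0, 25.2, 27.6 and 24.1 FPKM, with 4 mice low and replicate 2 within the NEMOIEC-KO range (-0.61 ± 0.16; adjusted p = 0.0093). These 3 genes and Manf kept their call in all 10 fits that each left out 1 mouse.

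Manf was 107, 170, 128, 83.1 and 78.3 FPKM (-0.68; adjusted p = 0.013). Creld2 was 32.6, 53.5, 40.0, 24.3 and 27.0 FPKM (-0.63; adjusted p = 0.024). In both, replicate 2 reached into the NEMOIEC-KO range and replicates 4 and 5 lay near the controls. Sec61b showed this most, at 391 FPKM in replicate 2 and 182 to 217 in the others (-0.53; adjusted p = 0.037). Xbp1 was 123, 117, 128, 109 and 113 FPKM, a narrow range that reached the edges of both Nemofl/fl and NEMOIEC-KO (-0.33; adjusted p = 0.043). Derl3 did not pass, at 2.44, 2.29, 3.63, 4.46 and 5.57 FPKM, every mouse above every control. Chac1 lay entirely below NEMOIEC-KO, at 0.523 to 0.863 FPKM, yet did not pass (-1.26 ± 0.47; adjusted p = 0.063).

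Without Il12b-labelled replicate 2 the count of lower genes was 15, and leaving out each other mouse in turn gave between 4 and 12. With the 2 NEMOIEC-KO and 5 Il12b-labelled libraries of the shared code it was 0, where 5.51% of all genes were called; Hspa5 was then at -0.65 (adjusted p = 0.15), Ppp1r15a at -0.63 (0.094) and Edem1 at -0.55 (0.15). Plasma cell markers were lower in 1 of 16 and higher in 1 (sums 4051 to 7127 FPKM), smooth muscle markers passed in 0 of 12 in limma, with 2 higher at an unadjusted p under 0.05 (sums 2156 to 9888), and epithelial markers fell in 5 of 12 and rose in 1 (12700 to 16530). The mean smooth muscle sum was 6224 FPKM against 3644 in NEMOIEC-KO, with 4 of 5 mice above every NEMOIEC-KO mouse. T cell markers fell in 6 of 13 and neutrophil markers in 6 of 12. With plasma cell markers as a covariate 5 of the 38 were lower, among them Hspa5 (-0.69, adjusted p = 0.0060) and Ppp1r15a (-0.76, adjusted p = 0.00022). With smooth muscle markers 3 were lower, Hspa5, Edem1 and Ppp1r15a. The share of all genes called is not given for the fits with these markers or without 1 mouse. Whether the 38 stood out in those fits is therefore not shown. The part of T cells and neutrophils was not tested.

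The third comparison sets the Il12a-labelled mice against NEMOIEC-KO, with 7 of the 38 lower and 0 higher: Hspa5, Dnajc3, Manf, Pdia3, Edem1, Ssr1 and Eif2ak3. Of all genes 9.61% passed, 5.61% as higher and 4% as lower. The groups did not overlap in 2 genes, Hspa5 and Ssr1, both lower (1.97% of all genes). At an unadjusted p under 0.05, 15 of the 38 were lower, beside 29.2% of all genes in either direction. The median log2 difference of the 38 was -0.30, beside 0.07 for all genes. Hspa5 was 202, 150, 127, 162 and 159 FPKM, every mouse below NEMOIEC-KO and replicate 1 just under its lowest mouse (-0.63 ± 0.17; limma adjusted p = 0.025). Dnajc3, the PERK inhibitor that also serves BiP, was 20.0, 13.4, 12.8, 15.9 and 16.6 FPKM, with replicate 1 alone inside the NEMOIEC-KO range (-0.41 ± 0.11; adjusted p = 0.025).

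Eif2ak3, which had not passed in NEMOIEC-KO against controls, was 8.12, 6.53, 6.41, 6.94 and 7.14 FPKM (-0.32 ± 0.09; adjusted p = 0.034). Replicate 1 was again the highest and overlapped NEMOIEC-KO, whose replicate 5 was the lowest of its group. Edem1 was 46.1 FPKM in replicate 1 and 26.1 to 29.0 in the other 4 mice (-0.50; adjusted p = 0.047). Ppp1r15a, lower in the Il12b-labelled mice, was 17.0, 19.4, 24.5, 21.2 and 17.8 FPKM and did not pass (-0.17, 95% interval -0.48 to 0.14). In the direct comparison of Il12a-labelled with Il12b-labelled mice 0 of the 38 passed in limma, where 0.41% of all genes did. At an unadjusted p under 0.05 the count was 1 of 38, Ppp1r15a, higher in Il12a-labelled mice, beside 6.49% of all genes.

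These 7 calls rest on few libraries. Without Il12a-labelled replicate 1, 14 of the 38 were lower, a count without the share of all genes in that fit beside it. Without NEMOIEC-KO replicate 2 or 3, or without Il12a-labelled replicate 2, 3 or 4, the count was 0. With the libraries of the shared code, 2 NEMOIEC-KO and 5 Il12a-labelled, it was also 0, where 0.0727% of all genes passed and Hspa5 was at -0.52 (adjusted p = 0.30). Plasma cell markers fell in 2 of 16 (sums 1632 to 9173 FPKM, replicate 1 highest), smooth muscle markers passed in 0 of 12 in limma, with 10 higher at an unadjusted p under 0.05 (sums 2530 to 12230, replicate 1 lowest), and epithelial markers fell in 3 of 12 (13220 to 17030, replicate 1 highest). The mean smooth muscle sum was 7971 FPKM against 3644 in NEMOIEC-KO, with 4 of 5 mice above every NEMOIEC-KO mouse. At an unadjusted p under 0.05, neutrophil markers were lower in 10 of 12, macrophage markers in 7 of 12 and T cell markers in 6 of 13. In each of these 3 lists 0 were higher. With plasma cell or smooth muscle markers as a covariate the count of lower genes among the 38 was 0. The part of any of these cell types was not tested.

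Of the 83 further pathway genes, 5 were higher and 6 lower in the Il12b-labelled mice against NEMOIEC-KO (median -0.07). That is 6.02% higher and 7.23% lower, beside 14% and 5.94% of all genes. In the Il12a-labelled mice 2 were higher and 5 lower (median -0.11), or 2.41% and 6.02% beside 5.61% and 4% of all genes. Wars was lower in both, at -1.52 and -1.33, as were Creb3l3 (-1.33 and -1.39) and Ero1l (-0.78 and -0.73). In the Il23a-labelled mice 0 of the 83 passed in limma, and 8 were higher and 1 lower at an unadjusted p under 0.05. Of all genes 10.5% passed at that level.

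The fourth comparison sets the Il23a-labelled mice against NEMOIEC-KO, and 0 of the 38 passed in limma, where 0.083% of all genes did. At an unadjusted p under 0.05, 3 of the 38 did, 1 lower and 2 higher, while 10.5% of all genes did, a larger share. The lower gene was Ppp1r15a, at 12.2, 16.9, 19.7, 12.5 and 13.1 FPKM against 18.2 to 28.1 in NEMOIEC-KO (-0.60 ± 0.15; adjusted p = 0.11). Only replicate 3 reached the NEMOIEC-KO range. With plasma cell markers as a covariate Ppp1r15a passed (-0.57; adjusted p = 0.042), as it did with smooth muscle markers (-0.56; adjusted p = 0.034). The share of all genes called in those fits is not given here. Leaving out each mouse in turn gave 0 lower genes among the 38, so Ppp1r15a passed in none of those fits.

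The higher genes were Ern2, the epithelial IRE1 isoform, at 14.5, 17.7, 17.0, 10.5 and 12.0 FPKM against 8.27 to 13.4 (0.39; adjusted p = 0.44), and Ssr4, at 242, 198, 267, 297 and 185 FPKM against 165 to 225 (0.25; adjusted p = 0.46). Both overlapped NEMOIEC-KO. The median log2 difference of the 38 was -0.01, beside 0.03 for all genes. For Hspa5 the 95% interval was -0.68 to 0.03, for Manf -0.59 to 0.17 and for Xbp1 -0.31 to 0.16, each ending just short of the estimate in the Il12b-labelled mice. The direct comparison of the 2 double mutants is given further on.

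The double mutants were also set against Nemofl/fl, with the same 5 control mice in each. In the Il12b-labelled mice 0 of the 38 passed in limma (0.369% of all genes). There 13 were higher and 1 lower at an unadjusted p under 0.05 (14.1% of all genes). In the Il12a-labelled mice 15 were higher and 4 lower at that level (19.8% of all genes), while 0 passed in limma (1.34%). In the Il23a-labelled mice 23 were higher and 1, Dnajb9, lower (29.5% of all genes, 12.6% as higher and 17% as lower). In 17 of the 23 every Il23a-labelled mouse lay above every control (8.47% of all genes). Dnajb9 was 7.87, 10.2, 9.65, 9.49 and 14.9 FPKM there and 14.1 to 25.1 in controls. It was the 1 member lower than controls (-0.68 ± 0.19; adjusted p = 0.012), and replicate 5 alone reached into the control range.

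Side by side, the log2 fold change against controls of Hspa5 was 1.03 in NEMOIEC-KO, 0.27 in Il12b-labelled, 0.40 in Il12a-labelled and 0.71 in Il23a-labelled mice. For Sdf2l1 these were 0.96, 0.50, 0.47 and 1.02, and for Derl3 1.67, 1.48, 0.92 and 1.82. In the Il12b-labelled mice Derl3 did not pass (adjusted p = 0.084). For Ppp1r15a the values were 0.50, -0.16, 0.33 and -0.10, the 1 gene of the 24 whose estimate was below controls in both the Il12b-labelled and the Il23a-labelled mice.

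Markers of other cell types moved in the Il23a-labelled mice against controls too. Plasma cell markers rose in 13 of 16 (sums 4702 to 11790 FPKM against 1037 to 3665), and smooth muscle markers fell in 11 of 12 (2074 to 6264 against 3347 to 11960). Epithelial markers rose in 6 of 12 (14660 to 18560 against 12370 to 13450) and T cell markers in 11 of 13. The 24 calls became 0 with plasma cell markers as a covariate, 1 with smooth muscle markers, 2 with epithelial markers and 4 with Xist. The shares of all genes called in these fits were 0.343%, 2.27%, 2.74% and 6.82%. No library code is shared between double mutants and controls. With the code as a term, estimated through NEMOIEC-KO, whose libraries are split between both codes, 8 of the 38 were higher and 1 lower, among 8.26% of all genes. Every Il23a-labelled mouse lay above every control in the plasma cell and the epithelial sums. The covariate was again the mean log2 level of the markers, not the sum. Many of these markers differed with genotype, so the fits cannot fully separate marker level from genotype. Xist exceeded 1 FPKM in 4 Il23a-labelled mice and 0 controls, so the fit with Xist cannot fully separate the 2 either. The part of cell makeup in the 24 calls was not tested.

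**Figure D3:**
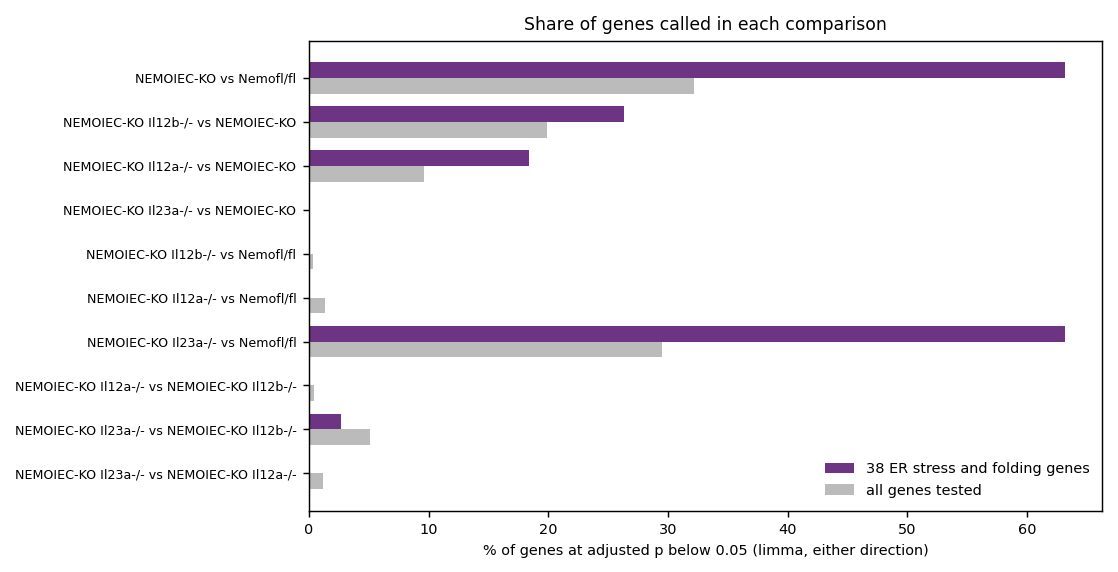
Percent of genes called at an adjusted p below 0.05 in limma, in either direction (x axis, from 0), for the 38 genes (purple) and all genes tested (grey) in 10 comparisons (y axis). The share of the 38 exceeds that of all genes in NEMOIEC-KO and Il23a-labelled mice against Nemofl/fl and in the Il12b-labelled and Il12a-labelled mice against NEMOIEC-KO, and is 0 or below it in the others.

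Between double mutants, Il23a-labelled against Il12b-labelled mice gave 1 call of 38, Chac1, which was higher (5.11% of all genes, 1.93% as higher). It was 8.11, 1.50, 1.19, 9.87 and 1.56 FPKM in Il23a-labelled mice, with replicates 1 and 4 far above the rest and every mouse above the Il12b-labelled range (1.61 ± 0.47; limma adjusted p = 0.049). Asns followed the same mice, at 41.8, 11.0, 21.7, 47.1 and 13.7 FPKM, and Trib3 too, at 5.08, 0.444, 1.44, 4.10 and 0.920. The call was lost, with a count of 0, without any 1 of Il12b-labelled replicates 1, 3, 4 and 5 and Il23a-labelled replicates 1 and 4. Without Il12b-labelled replicate 2 the count was 13. Against Il12a-labelled mice 0 of the 38 passed in limma (1.16% of all genes), and 13 did at an unadjusted p under 0.05 (20% of all genes). Without Il12a-labelled replicate 1 the adjusted count was 8. The share of all genes called in the fits without a mouse is not given here. Whether the 38 stood out there is therefore not shown.

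**Figure D4:**
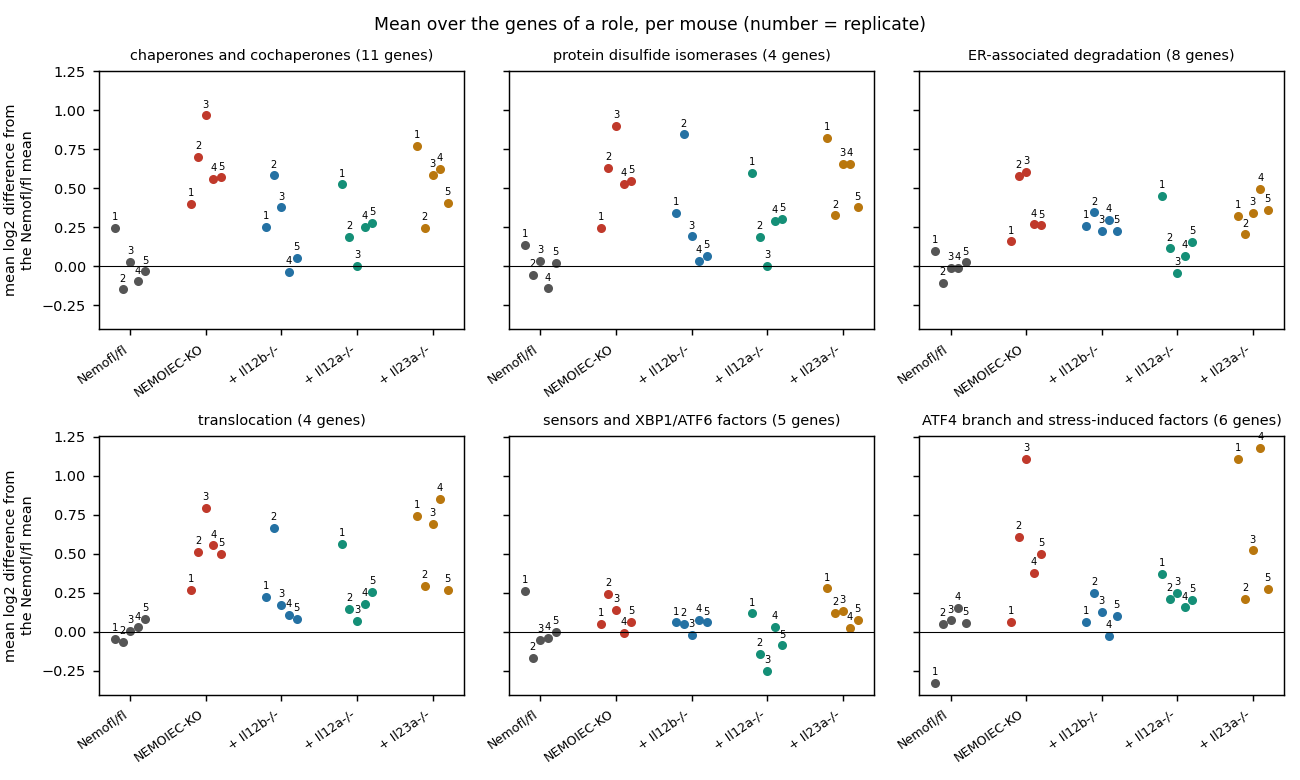
Mean log2 difference from the Nemofl/fl mean (y axis, on log2(FPKM + 0.5)) over the genes of each of 6 roles, for each mouse, by genotype (x axis); numbers beside points are replicate numbers and a plus sign stands for NEMOIEC-KO with the named label. Il12b-labelled replicate 2 and Il12a-labelled replicate 1 lie above the other mice of their genotype among chaperones, disulfide isomerases and translocation genes, and the sensors differ least between genotypes.

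Averaged over all 38 genes, the log2 difference from the control mean was 0.22, 0.57, 0.78, 0.39 and 0.42 in the NEMOIEC-KO mice, lowest in replicate 1 and highest in replicate 3. In the Il12b-labelled mice it was 0.21, 0.45, 0.21, 0.07 and 0.10, and in the Il12a-labelled mice 0.44, 0.13, 0.01, 0.17 and 0.19. The mouse that stood apart in each of these groups was as high as the middle NEMOIEC-KO mice. In the Il23a-labelled mice it was 0.67, 0.23, 0.48, 0.63 and 0.32. The order of the mice differed between roles. Over the 5 sensors and factors the NEMOIEC-KO mice were lowest in replicate 4 (-0.0053) and highest in replicate 2 (0.244). Il23a-labelled replicate 4 was the lowest of its genotype there (0.0231) and the highest over the 6 genes of the ATF4 branch (1.18). Il12b-labelled replicate 2 had 2156 FPKM of smooth muscle markers, the lowest of its genotype, and 4051 of plasma cell markers, also the lowest. Il12a-labelled replicate 1 had 2530 and 9173, the lowest and the highest of its genotype. In both mice the epithelial sum was the highest of its genotype, at 16530 and 17030 FPKM. The part of tissue makeup in these differences was not tested.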

How the data were processed

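The deposited table holds FPKM per gene for 25 distal colon libraries, made by the authors. The submitters' processing notes name TopHat2 2.0.10, Cufflinks 2.1.1, DESeq2 1.10.1 and GRCm38. The role of each tool, the gene annotation and the strand setting of the counting are not given in the sources used here. FPKM removes library size, so read depth is unknown and the number of mice limits the precision. Genotypes came from sample titles, all table columns were mapped (0 left over), and symbols came from GENCODE M21.

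Genes at 0.2 FPKM or more in at least 5 libraries were tested as log2(FPKM + 0.5) with limma 3.58.1 in R 4.3.3: 1 mean per genotype, all 25 libraries, a mean-variance trend and Benjamini-Hochberg adjustment over all 19266 genes, two-sided at 0.05. The procedure was tested on simulated data. The 38 genes and all lists were chosen with earlier results of these data known. Values per mouse are printed for the 2 members of each role with the largest called change in NEMOIEC-KO (or smallest p) and the 3 with the smallest p in each double mutant, with a few other members chosen after their values were seen. For further pathway lists, the 2 largest called changes each way are named. Alternatives were other added constants, filters and scalings, library code, Xist and cell marker covariates, 2-group fits, a replicate block and leaving out each mouse.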

Additional observations from a re-analysis of the deposited data

Results flagged for a closer look

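Among 190 sets of 5 mice (38 genes in 5 genotypes), 19 held a mouse whose gap to the nearest other mouse, divided by the range of the set, exceeded 0.71. Chance flags about 1 in 20 such sets. Of the 19, 9 were in Il12a-labelled replicate 1, 8 in Il12b-labelled replicate 2, 1 in NEMOIEC-KO replicate 1 and 1 in Nemofl/fl replicate 5.

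In Il12a-labelled replicate 1 the folding genes stood out, with Calr at 485 FPKM (next mouse 319.3), P4hb at 430 (319.3) and Creld2 at 45.9 (36.67). So did the degradation genes Herpud1 at 137 FPKM (97.7) and Edem1 at 46.1 (29.01). Of the translocation genes, Sec61b was at 353 FPKM (254.7) and Ssr4 at 236 (185.4). The ATF4 targets Asns, at 19.9 FPKM (13.3), and Chac1, at 3.49 (0.8671), stood out too.

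In Il12b-labelled replicate 2 the high genes were P4hb at 517 FPKM (next mouse 320.1), Pdia3 at 242 (182.0) and Canx at 101 (78.68). Edem1 was at 41 FPKM (27.58), Sec61b at 391 (217.3), Sec61a1 at 66.7 (47.2) and Asns at 22.2 (12.02). Dnajb9 was the exception, lowest there at 7.27 FPKM while the next mouse had 13.66. Edem1 was also high in Nemofl/fl replicate 5, at 30.6 FPKM (23.06), and Dnajb9 in NEMOIEC-KO replicate 1, at 15.4 (12.08). The part of tissue makeup in these values was not tested.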

How the results depend on the processing

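Counts below are of the 38 genes unless stated, and most stand without the share of all genes called in the same fit. For NEMOIEC-KO against Nemofl/fl, 24 genes were higher and 0 lower. The higher count was 9 with smooth muscle, 1 with plasma cell and 13 with epithelial markers as a covariate, and the lower count was 1 with the library code as a term. Leaving out each mouse gave 18 to 26 higher (18 without NEMOIEC-KO replicate 3) and 0 to 1 lower. With plasma cell markers the log2 fold change of Derl3 turned to -0.017 and that of Chac1 to -0.20.

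For Il12b-labelled mice against NEMOIEC-KO, 10 genes were lower. The count was 5 without a filter, 0 with the code as a term or within the shared code, and 3, 5 and 6 with smooth muscle, plasma cell and epithelial markers. In the 2-group fit 1 gene was higher. Leaving out each mouse gave 4 to 15 lower (4 without NEMOIEC-KO replicate 2 or 3 or Il12b-labelled replicate 1, 4 or 5).

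For Il12a-labelled mice against NEMOIEC-KO, 7 genes were lower. The count was 3 without a filter, 11 with median-of-ratios scaling or Xist, 4 with the replicate block or epithelial markers, and 0 in the 2-group fit, with the code as a term, within the shared code and with smooth muscle or plasma cell markers. Leaving out each mouse gave 0 to 14. For Il23a-labelled mice against NEMOIEC-KO, 0 were lower, and 1 (Ppp1r15a) with smooth muscle or plasma cell markers.

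Against Nemofl/fl, the Il12b-labelled count of 0 was 1 in the 2-group fit. The Il12a-labelled count of 0 was 5 there and 2 with smooth muscle markers. The Il23a-labelled count of 24 was 9 with the code as a term, 1 with smooth muscle, 0 with plasma cell and 2 with epithelial markers, and 4 with Xist, and leaving out each mouse gave 22 to 25. For Il23a-labelled against Il12b-labelled mice, the count of 1 was 0 with 1 FPKM added, no filter, the 2-group fit, the shared code, Xist, the replicate block and each marker covariate, 2 with median-of-ratios scaling, 4 with the code as a term and 0 to 13 when each mouse was left out. Against Il12a-labelled mice that range was 0 to 8.

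Median-of-ratios scaling turned the called genes from 2291 higher and 3911 lower to 3057 and 2891 in NEMOIEC-KO against Nemofl/fl, from 2689 and 1144 to 1230 and 1642 in Il12b-labelled and from 1080 and 771 to 583 and 1121 in Il12a-labelled mice against NEMOIEC-KO. It moved the median of all genes in the Il12b-labelled comparison from 0.11 to 0.00, and the members were then 27 higher, 14 lower and 11 lower. Replicate numbers are not stated to pair the mice. Deviations of same-numbered mice correlated over 0.1 in 10 of 50 pairs (median 0.0071), and those of differently numbered mice in 38 of 200 (median 0.00856). With the number as a replicate block, 23 genes were higher in NEMOIEC-KO, and 7 and 4 lower in the Il12b-labelled and Il12a-labelled mice. The cause of these changes was not tested, and 5 mice per genotype limit the precision.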
